A study of Mus musculus with 6 samples.

Results

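The genes described here bring fatty acids into the heart: Lpl, Gpihbp1, Lmf1, Angptl4 and Angptl2, which act on or are related to lipoprotein lipase, Cd36 and Slc27a1, which act at the cell surface, and the intracellular binding proteins Fabp3, Fabp4 and Fabp5. They were listed by name for their role in fatty acid uptake, with earlier results of these data known. Of the 10 listed genes 9 had a value, and Angptl2 was not analysed here. The 9 genes were read by 20 probe sets, among 18193 genes on the array. A gene's value is that of its probe set with the highest mean over all 6 arrays, and the other probe sets are given beside it. The values are RMA values, which are log2 signals that were background corrected and made alike in distribution between arrays.

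The comparison was of ventricular tissue from caAkt mice, 3 arrays, with ventricular tissue from wild-type (WT) mice, 3 arrays, all 8 weeks old. The caAkt mice carry a transgene for a constitutively active form of the kinase Akt, expressed in the heart only, and the series asks which changes in gene expression go with heart failure and mitochondrial dysfunction in them. The promoter of the transgene, the number of transgenic lines, strain and sex are not given in the sources used here. Whether each array stands for a separate heart is not stated either. The p-values therefore measure the spread between these arrays, which may be technical. On its brightest probe set Akt1 had 15.16, 15.10 and 15.08 in caAkt and 9.79, 9.79 and 10.18 in WT. Which probe set reads the transgene is not stated in the sources used here. Its other 3 probe sets had log2 fold changes of -0.29, 0.08 and -0.21. In the limma fit with all probe sets as rows the first of these was lower (adjusted p = 0.0281), and the others were not called. Array medians were 6.77 to 6.80, and the correlation over all probe sets was 0.995 to 0.997 within a genotype and 0.983 to 0.985 between genotypes. The 12 cardiomyocyte markers had group means of 12.69 to 15.25 in caAkt and 13.10 to 15.38 in WT. The atrial genes Sln and Myl7 varied within both groups, Sln from 6.32 to 8.70 in caAkt and from 7.24 to 10.50 in WT. Myl4, another atrial gene, varied from 10.08 to 11.59 in caAkt and from 8.58 to 11.38 in WT.

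Lipoprotein lipase is made by cardiomyocytes, is folded with the help of LMF1, and is carried by GPIHBP1 to the inner surface of capillaries, where it frees fatty acids from circulating triglycerides. ANGPTL4 inactivates the enzyme. Freed fatty acids, and those bound to albumin, cross endothelial cells and the cardiomyocyte membrane with the help of CD36 and of transport proteins such as FATP1, the product of Slc27a1, and are held in the cell by binding proteins, FABP3 in cardiomyocytes and FABP4 and FABP5 in endothelial cells, adipocytes and macrophages. Several of these genes are targets of PPAR nuclear receptors, which bind pairs of the sequence AGGTCA.

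Calls were made with limma where the p-value, adjusted over all 18193 genes, was under 0.05. Log2 fold changes are caAkt minus WT, so a negative one means lower in caAkt. Of the 9 measured genes, 1 rose (Angptl4) and 2 fell (Lpl and Slc27a1), while 6 were not called. Over all genes 16.1% rose and 12.4% fell, and with 9 genes these counts are no result about the group. The groups of arrays did not overlap for the same 3 genes, against 21.4% of all genes with caAkt above WT and 21.1% with caAkt below WT. The median log2 fold change of the 9 genes was -0.16, beside -0.04 over all genes.

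**Figure D1:**
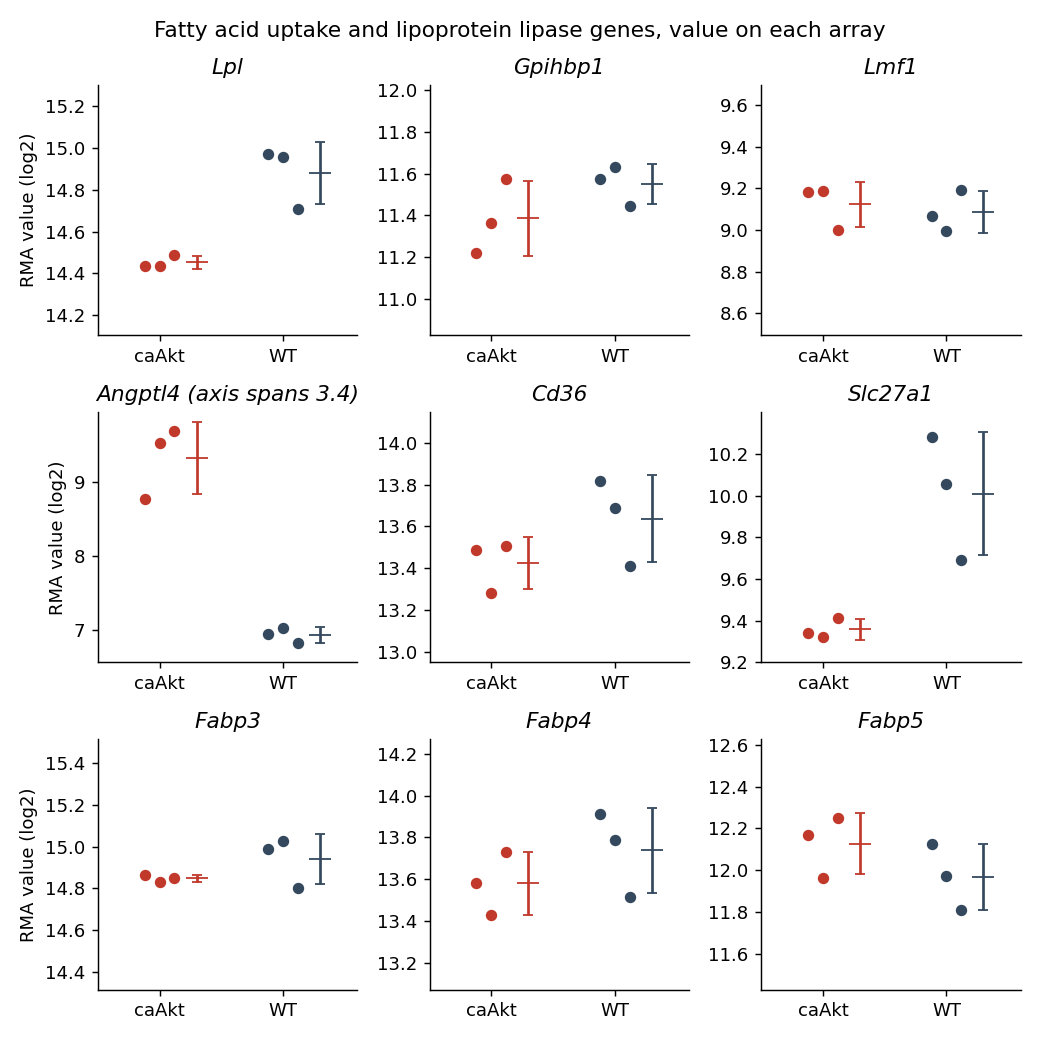
RMA value (log2) of each of the 9 measured genes on each array, caAkt left and WT right, with the mean and SD (n = 3) beside the points. The axis spans the same range in every panel except that of Angptl4. The points of Angptl4, Lpl and Slc27a1 do not overlap between groups, and in most panels WT replicate 3, the rightmost point, is the lowest WT value.

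Lpl, the lipase itself, was 14.44, 14.43 and 14.49 in caAkt and 14.97, 14.96 and 14.71 in WT. All 3 caAkt values lay below the lowest WT value, and WT replicate 3 was the WT array nearest to them. The log2 fold change was -0.43 ± 0.08 (SE, adjusted p = 0.00486), which is 1.34-fold lower in caAkt, with a 95% interval of -0.62 to -0.23. A second probe set of Lpl gave 13.49, 13.34 and 13.44 in caAkt and 14.29, 14.30 and 14.17 in WT. There the log2 fold change was -0.83 ± 0.08 (adjusted p = 0.000117 with each of 45037 probe sets as a row), 1.78-fold lower. In that fit 8.76% of all probe sets were lower and 11.3% higher.

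The partners that Lpl needs before it can work were not called. Gpihbp1, the capillary anchor, had 11.22, 11.37 and 11.58 in caAkt and 11.58, 11.63 and 11.45 in WT. The groups overlapped, with caAkt replicate 3 as high as WT replicate 1, and the log2 fold change was -0.17 ± 0.10 (adjusted p = 0.253, 95% interval -0.39 to 0.06). Lmf1, the maturation factor of the endoplasmic reticulum, had 9.18, 9.19 and 9.00 in caAkt and 9.07, 9.00 and 9.19 in WT. These values were interleaved, and the log2 fold change was 0.04 ± 0.08 (adjusted p = 0.771), with a 95% interval of -0.15 to 0.23. A dimmer probe set of Lmf1, at 4.50 to 4.69 in caAkt and 4.69 to 4.86 in WT, gave -0.14 (adjusted p = 0.300).

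Angptl4, the inhibitor of the lipase, rose. It had 8.78, 9.53 and 9.69 in caAkt and 6.95, 7.02 and 6.82 in WT. The lowest caAkt array, replicate 1, stood 1.76 above the highest WT array, and the caAkt arrays spread over 0.91 where the WT arrays spread over 0.20. The log2 fold change was 2.41 ± 0.20 (SE, adjusted p = 3.43e-05), or 5.31-fold, and only 48 of the 18193 genes had a larger change in either direction. This value comes from a probe set whose name ends in _s_at, which in the maker's naming marks probes that several transcripts share. The other probe set of Angptl4 had 3.75, 3.83 and 3.75 in caAkt and 3.51, 3.71 and 3.81 in WT, close to the lowest values on the arrays (3.17 to 3.26), and gave 0.10 ± 0.09 (adjusted p = 0.497). The call therefore rests on a single probe set. The mean of the pair was 1.25 and still called, while a fit restricted to plain probe sets, which keeps only the dim one, gave 0.10 and no call.

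Slc27a1, the transporter FATP1, fell on both of its probe sets. The brighter had 9.34, 9.32 and 9.42 in caAkt and 10.28, 10.05 and 9.69 in WT. The caAkt arrays lay within 0.09 of each other and below every WT array, while the WT arrays spread over 0.59. The log2 fold change was -0.65 ± 0.13 (adjusted p = 0.00521), 1.57-fold lower. The other probe set had 8.84, 9.14 and 8.95 in caAkt and 9.84, 9.77 and 9.87 in WT, a log2 fold change of -0.85 ± 0.09 (adjusted p = 0.000250 among all probe sets). Its WT arrays were close together, and its groups did not overlap either.

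Cd36, the membrane receptor through which the heart takes up much of its fatty acid, was not called at the probe set that represents it. It had 13.49, 13.28 and 13.51 in caAkt and 13.82, 13.69 and 13.41 in WT. WT replicate 3 lay among the caAkt arrays, and the log2 fold change was -0.21 ± 0.11 (adjusted p = 0.189, 95% interval -0.47 to 0.04). Without WT replicate 3 it was -0.33 and called (adjusted p = 0.0378), which makes 3 members lower in that fit. Of its other probe sets, 1 gave a similar value (-0.24 ± 0.14, adjusted p = 0.271). The third had 11.38, 11.21 and 11.36 in caAkt and 12.27, 11.93 and 11.69 in WT, with no overlap. That probe set fell by 0.65 ± 0.14 on the log2 scale (adjusted p = 0.00906), so the call on Cd36 depended on the probe set read. With the mean of its 3 probe sets Cd36 had -0.37 (adjusted p = 0.0528).

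Promoter sequences of 5 of the 10 listed genes were found in the RefSeq table of build GRCm38.p6, in 7 windows of 250 bases before and 50 after a transcript start. Those of Cd36, Slc27a1 and Fabp3 are shown as those of the membrane receptor, the transporter and the binding protein of cardiomyocytes. Slc27a1 has 3 windows, of which the one with the lowest coordinates is printed. Capitals mark matches on either strand to AGGTCA, the core bound by nuclear receptors, to CCAAT and to the GC box GGGCGG, and TATAAA was searched as well. These motifs did not overlap one another in the printed windows.
Cd36, chr5:17835847-17836146, minus strand: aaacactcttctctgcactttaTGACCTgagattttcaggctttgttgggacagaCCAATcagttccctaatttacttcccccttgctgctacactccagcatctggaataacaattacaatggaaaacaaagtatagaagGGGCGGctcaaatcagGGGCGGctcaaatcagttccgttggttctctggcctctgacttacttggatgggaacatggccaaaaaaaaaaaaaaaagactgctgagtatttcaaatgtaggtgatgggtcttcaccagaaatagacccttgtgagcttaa
Slc27a1, chr8:71568621-71568920, plus strand: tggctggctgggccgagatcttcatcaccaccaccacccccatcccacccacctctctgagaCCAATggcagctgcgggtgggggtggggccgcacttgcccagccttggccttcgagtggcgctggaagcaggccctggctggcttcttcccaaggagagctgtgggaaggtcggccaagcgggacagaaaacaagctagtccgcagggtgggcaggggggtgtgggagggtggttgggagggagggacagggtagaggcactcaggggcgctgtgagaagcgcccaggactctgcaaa
Fabp3, chr4:130308488-130308787, plus strand: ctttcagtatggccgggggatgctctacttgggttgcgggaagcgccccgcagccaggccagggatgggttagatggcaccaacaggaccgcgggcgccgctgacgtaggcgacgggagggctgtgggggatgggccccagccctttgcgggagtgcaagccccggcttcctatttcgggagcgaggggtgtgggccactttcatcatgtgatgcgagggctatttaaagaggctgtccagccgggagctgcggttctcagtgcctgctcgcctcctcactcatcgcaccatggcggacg
The Cd36 window held a single AGGTCA, in reverse orientation 228 bases before the start, a CCAAT 195 bases before it and GGGCGG at 109 and 93 bases before it. The printed Slc27a1 window held a CCAAT 188 bases before its start and none of the other motifs. Of its other windows, one held GGGCGG 139 bases before the start, and the one with the highest coordinates held GGGCGG at 159, 48 and 17 bases and a CCAAT at 128 bases before the start. The Fabp3 window held none of the 4 motifs. Of all 32851 RefSeq windows, 16.3% hold AGGTCA, 37.4% CCAAT, 35.7% GGGCGG and 13.6% TATAAA. A direct repeat of AGGTCA with a single base between the copies, the form that PPARs bind, was in 0.0396% of windows and in none of the 7 of the listed genes. A match is a description of these letters and does not show binding, and a missing match says only that the letters are not in this window.

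None of the intracellular binding proteins was called at its brightest probe set. Fabp3, the heart type that carries fatty acids inside cardiomyocytes, had 14.86, 14.83 and 14.85 in caAkt and 14.99, 15.02 and 14.80 in WT. The caAkt arrays differed by 0.03, WT replicate 3 was below all of them, and the other WT arrays were above. The log2 fold change was -0.09 ± 0.08 (adjusted p = 0.413), with a 95% interval of -0.27 to 0.08. These signals are close to the highest value on the arrays (15.32 to 15.45). A much dimmer probe set of Fabp3 had 8.00 to 8.17 in caAkt and 7.68 to 8.13 in WT and gave 0.19 ± 0.11 (adjusted p = 0.286), the opposite sign.

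Fabp4, the adipocyte type, which endothelial cells of the heart also make, had 13.58, 13.43 and 13.73 in caAkt and 13.91, 13.79 and 13.51 in WT. The groups overlapped through WT replicate 3, and the log2 fold change was -0.16 ± 0.12 (adjusted p = 0.345, 95% interval -0.42 to 0.10). Its 3 other probe sets gave values of -0.30, -0.87 and -0.60. The middle one of these had 9.00, 9.26 and 9.29 in caAkt and 10.15, 10.03 and 9.98 in WT, did not overlap, and fell by 0.87 ± 0.10 on the log2 scale (adjusted p = 0.000308 among all probe sets). The first and last had adjusted p = 0.370 and 0.0729. With the mean of its 4 probe sets, Fabp4 was called lower (-0.48, adjusted p = 0.00528), as it was in the fit of plain probe sets (-0.87, adjusted p = 0.000146).

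Fabp5, the epidermal type, had 12.17, 11.96 and 12.25 in caAkt and 12.12, 11.97 and 11.81 in WT. The ranges overlapped, and the log2 fold change was 0.16 ± 0.10 (adjusted p = 0.291, 95% interval -0.08 to 0.39). Its second probe set gave much the same value, 0.14 ± 0.09 (adjusted p = 0.335). Among the binding proteins Fabp5 thus had a positive value on every probe set that reads it, and Fabp4 a negative one, but the difference between the genes was not tested.

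**Figure D2:**
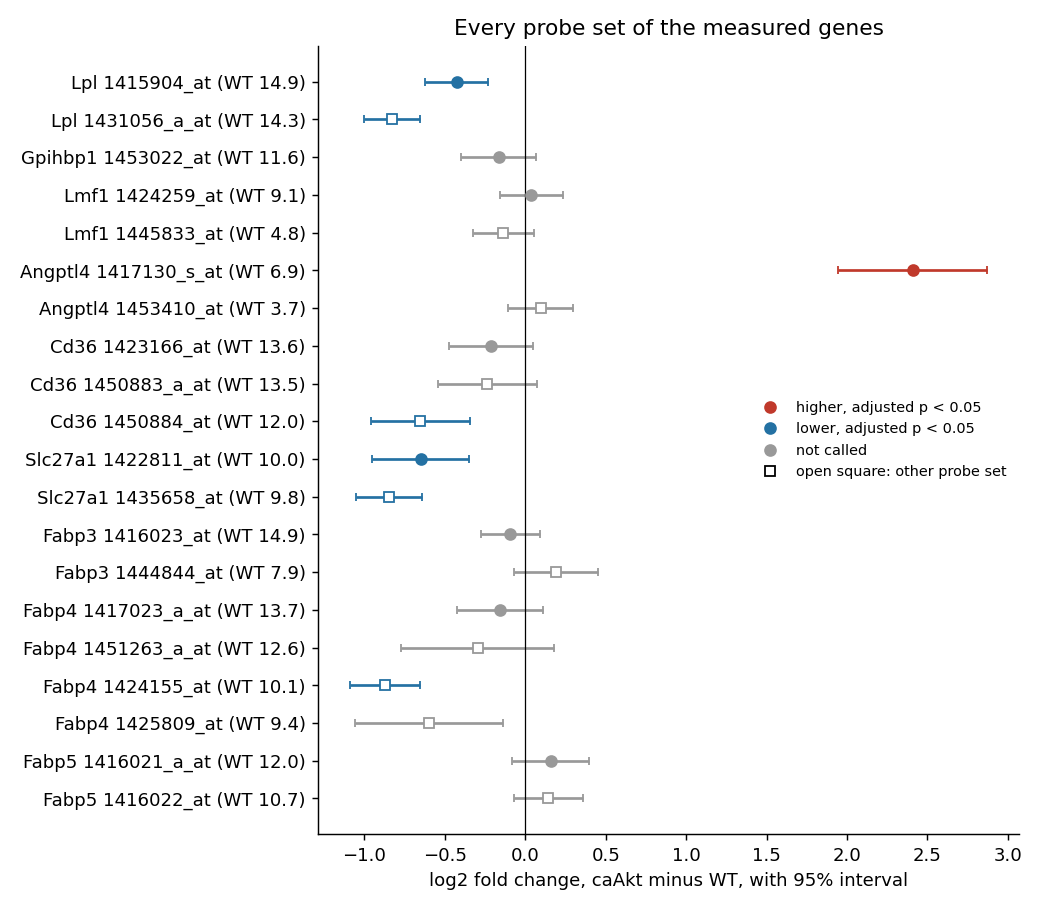
Log2 fold change, caAkt minus WT, with its 95% interval for all 20 probe sets of the 9 measured genes in the fit of all probe sets, with the mean WT value in brackets. Filled circles are the probe sets that represent a gene and open squares the others, and 6 probe sets were lower, 1 higher and 13 not called.

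Across the 20 probe sets 6 were called lower and 1 higher. They belong to 5 genes, since Lpl and Slc27a1 were called on both probe sets and Cd36, Fabp4 and Angptl4 on a single one each. Probe sets of one gene share its transcripts and are not replicates. Within a gene, the difference between a dimmer probe set and the brightest was taken on each array, for 11 such pairs in 8 genes. For Lpl this difference was -0.95, -1.10 and -1.05 in caAkt and -0.68, -0.66 and -0.54 in WT. For the third probe set of Cd36 it was -2.11, -2.07 and -2.15 in caAkt and -1.54, -1.75 and -1.72 in WT, and for the called one of Fabp4 -4.58, -4.17 and -4.44 in caAkt and -3.76, -3.76 and -3.54 in WT. In these 3 pairs the groups did not overlap (exact two-sided permutation p = 0.1 each, the smallest that 3 against 3 arrays allow, adjusted p = 0.275 over the 11 pairs). On these arrays the probe sets of these 3 genes gave folds of unequal size. The pairs were named after their values were seen, and the test cannot pass 0.05 in this design. It therefore cannot decide whether the folds differ beyond these arrays. The pair of Angptl4 did not overlap either, but its dimmer probe set lay near the lowest values on the arrays, so that difference repeats the change of the brighter one. Which part of a transcript each probe set reads was not analysed here, and the part played by the top of the scale or by transcript forms was not tested.

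Single arrays stood at the low end of their group for most of these genes. WT replicate 3 was the lowest WT array for 8 of the 9 measured genes, all except Lmf1, whereas over all genes it was the lowest for 45.6%. That array was also the lowest WT array for every cardiomyocyte marker except Mybpc3, so this order is not particular to the uptake genes. Its highest signal over all probe sets was 15.32, beside 15.42 to 15.45 on the other arrays. Among caAkt arrays replicate 2 was the lowest for 6 of the 9, beside 32.3% of all genes, while replicate 1 was the lowest for Gpihbp1 and Angptl4 and replicate 3 for Lmf1. Leaving out WT replicate 3 made the value of Lpl -0.51 and that of Slc27a1 -0.81, and no single array changed the call of either of them. Over the 6 fits that leave out an array, Lpl ranged from -0.51 to -0.38 (adjusted p 0.00138 to 0.0250) and Slc27a1 from -0.81 to -0.51 (adjusted p 0.000542 to 0.0273). Angptl4 ranged from 2.23 to 2.69, the highest without caAkt replicate 1.

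**Figure D3:**
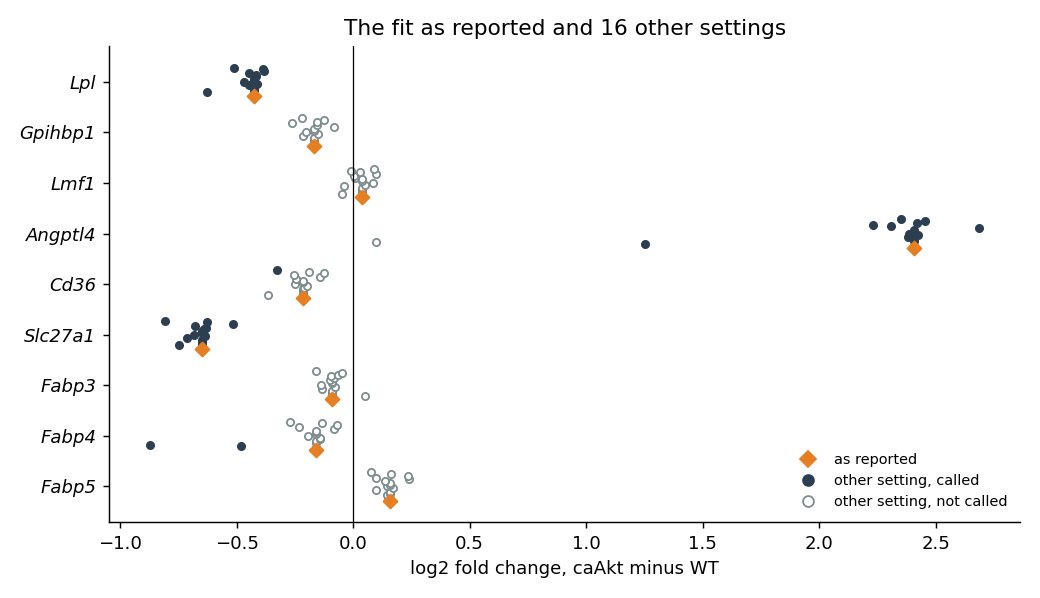
Log2 fold change of each measured gene in the fit as reported (diamond) and in 16 other settings (points), filled where the gene was called. Lpl and Slc27a1 were called lower in all 17 fits, and Angptl4 higher in all but the fit of plain probe sets, where only its dim probe set remains.

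Of 17 measured genes that process the lipase or supply its cofactors, 1 rose and 1 fell, beside 16.1% and 12.4% of all genes. Their median was -0.02, beside -0.04 over all genes. Pcsk6, a proprotein convertase that can cleave the lipase and its inhibitors, had 9.51, 9.88 and 9.76 in caAkt and 10.14, 10.15 and 10.17 in WT, a log2 fold change of -0.44 ± 0.10 (adjusted p = 0.00829). Pcsk5, a related convertase, rose by 0.39 ± 0.07 (adjusted p = 0.00350), but was not called with the mean of its probe sets (0.16, adjusted p = 0.0673) or with plain ones (0.06). Apoc2, the activator of the lipase, had a value of 0.34 (adjusted p = 0.0822) and was called without caAkt replicate 3 (0.50, adjusted p = 0.00953). Sort1, which sorts the lipase on its way through the cell, had -0.18 (adjusted p = 0.0829).

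Among 13 measured genes of transport and activation of fatty acids, 3 rose and 1 fell, beside 16.1% and 12.4% of all genes. Their median was 0.05. Acsl5, an acyl-CoA synthetase that traps fatty acids in the cell, had 10.14, 10.13 and 10.09 in caAkt and 9.62, 9.63 and 9.59 in WT. Its log2 fold change was 0.50 ± 0.06 (adjusted p = 0.000366), and the groups were far apart beside their spread. Zdhhc4, a palmitoyltransferase that helps CD36 to reach the membrane, rose by 0.33 ± 0.07 (adjusted p = 0.00663). Acsl6 had 0.29 ± 0.08 (adjusted p = 0.0188) and lost its call without caAkt replicate 1 (adjusted p = 0.0585), caAkt replicate 2 (0.0694) or WT replicate 3 (0.0541), and its mean over probe sets was 0.11. Cav1, a caveolin abundant in endothelial cells, had 12.14, 12.13 and 12.43 in caAkt and 12.84, 12.74 and 12.54 in WT, and fell by 0.47 ± 0.11 on the log2 scale (adjusted p = 0.00968). Acsl1 and Slc27a6, the other forms known from the heart, were not analysed here.

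Among the remaining 7 binding proteins 0 rose and 0 fell, beside 16.1% and 12.4% of all genes. Their median was -0.07. Only Dbi was bright, with means of 12.28 in caAkt and 12.13 in WT. The others had group means of 3.99 to 6.57, below the array medians of 6.77 to 6.80, so the lack of calls says little about them. Fabp7 had -0.20 (adjusted p = 0.110), Fabp2 -0.17 (adjusted p = 0.155) and Dbi, which binds acyl-CoA, 0.15 (adjusted p = 0.215). Fabp12 had -0.24 (adjusted p = 0.160) and was called lower without WT replicate 3 (-0.34, adjusted p = 0.0494). Of 5 lipoprotein receptors 1 rose and 1 fell, beside the same shares of all genes. Lrp1, a receptor for remnant particles and many other ligands, had 11.08, 11.46 and 11.35 in caAkt and 10.03, 10.26 and 10.13 in WT, a log2 fold change of 1.15 ± 0.11 (adjusted p = 6.23e-05). Vldlr, which binds triglyceride-rich particles in heart and muscle, had 12.69, 12.37 and 12.25 in caAkt and 13.34, 13.07 and 12.82 in WT. Its log2 fold change was -0.64 ± 0.15 (adjusted p = 0.0108), and it was not called without caAkt replicate 3 (-0.54, adjusted p = 0.0516). That value is from a probe set whose name ends in _x_at. In the fit of plain probe sets Vldlr had -0.92 (adjusted p = 0.000684), and with the mean of its probe sets -0.70 (adjusted p = 0.00127).

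Regulators of uptake genes were lower for 9 of 15 and higher for 1, with a median of -0.36. Besides transcriptional regulators this list holds the growth factor Vegfb, which was among the lower genes, and the receptors Flt1 and Nrp1. Over all genes 12.4% were lower and 16.1% higher, with a median of -0.04. This list, like the others, was chosen with earlier results of these data known. Tcf15, which with Meox2 drives fatty acid uptake genes such as Cd36 and Lpl in endothelial cells of the mouse heart, had 9.60, 9.64 and 9.30 in caAkt and 10.61, 10.55 and 10.34 in WT. It fell by 0.99 ± 0.11 on the log2 scale (adjusted p = 0.000169). Meox2, added after its value was seen, had -0.16 (adjusted p = 0.160). Ppara, the PPAR form of oxidative tissues, was 9.27, 9.53 and 9.30 in caAkt and 10.35, 9.95 and 10.40 in WT, and its coactivator Ppargc1a fell by 1.79 ± 0.17. Rxrg, a partner of PPARs, fell by 0.84 ± 0.09 and Klf15, a regulator of lipid use in heart, by 1.38 ± 0.15. Pparg, the adipocyte form, was near the threshold, with 0.24 ± 0.08 (adjusted p = 0.0603). Hif1a, the only gene of this list that rose and chosen after its value was seen, had 11.36, 11.17 and 11.20 in caAkt and 10.79, 10.64 and 10.16 in WT, a log2 fold change of 0.71 ± 0.15 (adjusted p = 0.00604).

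Of 18 further PPAR targets 13 fell and 2 rose, beside 12.4% and 16.1% of all genes. Their median was -0.40. Ech1, an isomerase of fatty acid breakdown, fell by 0.96 ± 0.08 and Mlycd, which removes malonyl-CoA, by 0.71 ± 0.07. Hadha, a subunit of the trifunctional protein, fell by 0.64 ± 0.07 and the dehydrogenase Acadvl by 0.49 ± 0.07. The genes that rose, both chosen after their values were seen, were Cpt1a (0.56 ± 0.09) and the lipid droplet protein Plin2 (0.37 ± 0.07). Angptl4, itself a PPAR target, rose by 2.41 while most of these targets fell, and whether it differed from them was not tested.

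**Figure D4:**
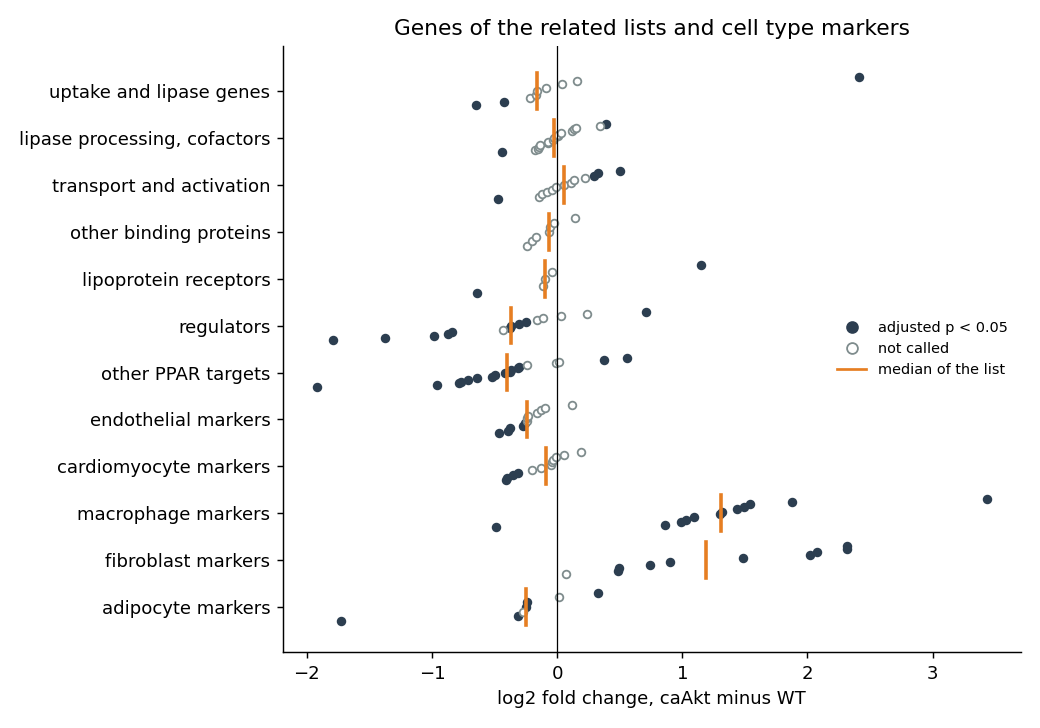
Log2 fold change, caAkt minus WT, of each gene in the related lists and in the cell type marker lists, filled where called, with the median of each list as a bar. Regulators and other PPAR targets have medians of -0.36 and -0.40, macrophage markers 1.31 and fibroblast markers 1.19.

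Most macrophage and fibroblast markers moved as well, while 7 of 12 endothelial and 8 of 12 cardiomyocyte markers were not called. Over all genes 16.1% were higher and 12.4% lower. Endothelial markers, of cells that hold GPIHBP1, CD36 and FABP4, were lower for 5 of 12 and higher for 0, with a median of -0.24, and their summed signal was 13.68 to 13.84 (log2) in caAkt and 14.01 to 14.03 in WT. The endothelial receptors Kdr and Tek, chosen after their values were seen, fell by 0.46 ± 0.08 and 0.39 ± 0.08. Emcn (-0.38), Ptprb (-0.27) and Ramp2 (-0.26) were called lower too. Pecam1 (-0.13, adjusted p = 0.309), Cdh5 (-0.16, adjusted p = 0.152) and Cldn5 (-0.10, adjusted p = 0.550) were not called. Neither were Tie1 (-0.24, adjusted p = 0.0753), Egfl7 (-0.23, adjusted p = 0.0665) and Esam (-0.24, adjusted p = 0.0775). For these last genes and Cdh5 all caAkt arrays lay below all WT arrays, as for 21.1% of all genes. Vwf was not called either and had a positive value (0.12, adjusted p = 0.593). Macrophage markers, of cells that also make FABP4, FABP5, CD36 and lipoprotein lipase, were higher for 11 of 12, with a summed signal of 14.18 to 14.50 in caAkt and 12.87 to 13.09 in WT. Their median log2 fold change was 1.31, and Cd163 was the marker that fell (-0.49, lost without caAkt replicate 1 or WT replicate 1, adjusted p = 0.0715 and 0.0527). Fibroblast markers were higher for 9 of 10, with a summed signal of 16.40 to 16.56 in caAkt and 14.91 to 15.22 in WT. Cardiomyocyte markers were lower for 4 of 12 and higher for 0, with a summed signal of 18.18 to 18.20 in caAkt and 18.25 to 18.39 in WT.

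Of 7 adipocyte markers 4 were lower and 1 was higher, beside 12.4% and 16.1% of all genes. Their summed signal was 10.92 to 11.04 in caAkt and 10.89 to 11.04 in WT. The brightest of them, Cidea, a lipid droplet protein chosen after its value was seen, rose by 0.33 ± 0.07 (adjusted p = 0.00545). Without Cidea the summed signal of the other 6 was 9.38 to 9.50 in caAkt and 9.75 to 10.02 in WT. Cidea was left out after its value was seen. The brightest of the 6, Lipe, had means of 8.73 in caAkt and 9.04 in WT, so that sum follows Lipe most. Adipoq, the adipocyte hormone adiponectin, had 5.18 ± 0.18 in caAkt and 6.91 ± 0.65 in WT (SD, n = 3 each; the WT arrays had 7.67, 6.49 and 6.58), and fell by 1.73 ± 0.27 on the log2 scale. WT replicate 1, the array with the most Adipoq, was the highest WT array for 5 of the 9 measured genes (Fabp4, Fabp5, Cd36, Slc27a1 and Lpl), beside 39.1% of all genes, WT replicate 2 for 3 and WT replicate 3 for 1. WT replicate 3, the lowest WT array for those 5 genes, had slightly more Adipoq than WT replicate 2. WT replicate 1 also had the most Sln (10.50) and Myl7 (11.73) of all arrays. For the atrial gene Myl4, however, caAkt replicates 3 and 1 (11.59 and 11.50) were above WT replicate 1 (11.38). Of the remaining atrial markers Nr2f1 was highest in WT replicate 1, while Bmp10 and Tbx5 were not. Whether the order of the WT arrays goes with fat or with atrial tissue was not tested. On the second probe set of Fabp4, WT replicate 1 was the highest with 13.15, beside 12.50 in replicate 2 and 12.19 in replicate 3. On its dimmest probe set WT replicate 3 was the highest, with 9.82, beside 9.36 in replicate 1 and 8.95 in replicate 2. The part of endothelial cells, macrophages, fibroblasts or fat in the values of the uptake genes was not tested. In bulk tissue fewer cells of a type and less RNA per cell cannot be told apart.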

How the data were processed

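Total RNA of ventricular tissue was labelled with biotin in a one-cycle reaction for 3 caAkt and 3 WT short-oligonucleotide arrays, per the labels' protocols. The deposited log2 values were made by the authors with RMA in the R package affy, per the submitters' processing notes, which give no versions. RMA compares genes relative to the bulk of an array. The values cover 45101 probe sets, 64 of them controls. The platform annotation gave 34945 a single gene symbol, 932 several and 9160 none. No genome build is named for these values, and coordinates were used only to place the RefSeq promoter windows.

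The genotypes were compared in limma 3.58.1 (R 4.3.3), two-sided, with genotype as the only term, default eBayes settings and 4 residual degrees of freedom. P-values were adjusted by Benjamini-Hochberg over 18193 genes, and no dim probe set was filtered out. A second fit took 45037 probe sets as rows. Level errors are SDs over 3 arrays, and fold change errors are moderated standard errors. The number of arrays limits the precision. The fit was tested on simulated data.

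The members and lists were chosen with earlier results of these data known. The text names every member with all its probe sets, up to 4 genes of smallest p in each of 6 related lists, Ppara, Pparg, Ppargc1a, Vldlr, Akt1 and marker genes, and says where others were added after their values were seen. The alternatives were trend and robust moderation, means over a gene's probe sets, plain probe sets (without the _x, _s or _a suffix), every probe set as a row, the dimmest 25% of genes left out, another round of quantile normalization, centring on the array medians, weighted arrays, a replicate block, a 0.01 threshold and fits without single arrays.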

Additional observations from a re-analysis of the deposited data

How the results depend on the processing

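Over 16 alternatives Lpl and Slc27a1 kept their direction and call, and Angptl4 lost its call in the fit of plain probe sets only. There the count of members called higher was 0, that of lipase processing genes higher 0 and that of transport genes lower 0. The last 0 arose because Cav1 has no plain probe set and was not in that fit. Lipoprotein receptors called higher numbered 2 there, since Lrp8 reversed from -0.10 (not called) to 0.24 (adjusted p = 0.0383) on another probe set. Regulators called higher numbered 2 with the mean of probe sets, without dim probe sets, with median centring and with array weights, as Pparg was called there. Repeated quantile normalization gave 2 lipase processing genes lower, with Sort1 at -0.23, and called Meox2 (adjusted p = 0.0328). Over all genes that normalization called 2669 higher and 2708 lower, against 2929 higher and 2254 lower as reported. At a threshold of 0.01, 3255 genes were called in place of 5183, with 0 lipoprotein receptors lower and 8 PPAR targets lower. In fits without single arrays 3984 to 4827 genes were called, and 2 to 3 members were lower. The counts ranged from 1 to 2 for lipase processing genes higher, from 0 to 1 for receptors lower and from 0 to 1 for other binding proteins lower. The median of the members, which is no call, was -0.23 to -0.07 (-0.07 without WT replicate 1, -0.08 without caAkt replicate 2 and -0.10 without caAkt replicate 1).

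With the replicate number as a block 5141 genes were called, and Lpl (adjusted p = 0.00910), Slc27a1 and Angptl4 kept their calls. Deviations of same-numbered arrays from their group means correlated at 0.27, 0.03 and -0.12 over genes, and not every array correlated best with its own number. Whether arrays were handled in pairs cannot be told from these correlations. Signals of Fabp3 and Lpl lay near the top of the scale and those of the second probe set of Angptl4 near the bottom, and the effect of this on their fold changes was not tested.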
